A study of Arabidopsis thaliana with 6 samples.

Results

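The phosphate starvation response genes described here are 9 Arabidopsis thaliana loci named by locus ID: SPX1, SPX3, IPS1, PHT1;1, PHT1;4, MGD3, SQD1, SQD2 and PAP17. They are 9 of the 32834 loci in the count table, all 9 were present, and all 9 passed the filter on low counts. They were read in 6 poly(A) RNA libraries of 7-day-old whole Col-0 seedlings: 2 labelled MIF_1, 2 labelled MIF_3 and 2 of wild type (WT). The MIF_1 and MIF_3 seedlings carried pTA7002-Dexp:Myc-MIF, a vector whose promoter is switched on by the steroid dexamethasone to express Myc-tagged MIF. Seedlings of all 3 groups, WT included, grew for the 7 days on 10 µM dexamethasone with 1% sucrose and 16 h of light per day, on the same 1/2 Murashige-Skoog medium, so the labels give no difference in phosphate supply. The labels do not say whether MIF_1 and MIF_3 are separate insertion lines, nor whether replicates were separate cultures; each p-value therefore reflects only the spread between these libraries, which may be technical. Seedlings carrying an empty vector, or grown without dexamethasone, were not analysed here.

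Plants take up phosphate as an inorganic ion and answer its shortage with a shared transcriptional program. PHR1, a MYB-type transcription factor, and its relatives bind a promoter motif called P1BS, and SPX proteins bound to inositol pyrophosphates hold PHR1 back when phosphate is ample. When phosphate is scarce, genes for uptake, for recovery of phosphate from organic compounds and for replacing membrane phospholipids with galactolipids and sulfolipid are switched on, together with noncoding RNAs that act on the microRNA miR399.

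The sequences below show the RNA branch of that program, in which IPS1 takes part. IPS1 (AT3G09922, chr3:3050989-3051530, plus strand, TAIR10.1) is known to act as a decoy for miR399, whose target is the transcript of PHO2, a ubiquitin-conjugating enzyme that limits phosphate transport. Sequences were read from the RefSeq TAIR10.1 genome. Of the 7 mature sequences annotated at the 6 MIR399 loci, 6 share the seed GCCAAAG, and the exception is the 5p strand of MIR399c. In the microRNA the capitals mark the seed (bases 2 to 8); in the 3 sites they mark bases that form Watson-Crick pairs with miR399b.
ath-miR399b: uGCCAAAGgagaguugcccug
IPS1 site: ttGGGCAACTtctaTCCTTTGGCA
AT4 site: ttGGGCAACTtcgaTCCTTTGGCA
PHO2 site: ttGGGCAAaTCTCCTTTGGCA
The IPS1 site (chr3:3051224-3051247, in the annotated coding sequence) and the site of its relative AT4 (chr5:895149-895172) each pair 18 of 21 bases, with 3 unpaired bases inserted across the middle of the microRNA. The PHO2 site shown (chr2:14281884-14281904, minus strand, outside the annotated coding sequence) pairs 18 of 21 bases without an insertion and is 1 of 4 such sites of equal score for miR399b in that transcript. These are matches of letters, not measured binding.

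P1BS was searched as GNATATNC, which reads the same on both strands, upstream of each annotated gene start. Within 1000 bases it occurred in 5 of the 9 genes (55.6%), in 42 of 80 other phosphate genes (52.5%) and in 20.3% of 27443 protein-coding genes. Within 250 bases the shares were 1 of 9 (11.1%), 25 of 80 (31.2%) and 5.5%. The 80 include the 6 MIR399 loci and the MIR827 locus, which are not protein-coding and have copies within 1000 bases. Of these, MIR399D and MIR399E share the same copies. The shares of the 80 and of the protein-coding genes are therefore of unlike classes. SPX3 was the gene with 2 copies within 250 bases; the windows around the more distant copies of 4 others are shown too, with the motif in capitals.
SPX3 (chr2:18606160-18606409, plus strand): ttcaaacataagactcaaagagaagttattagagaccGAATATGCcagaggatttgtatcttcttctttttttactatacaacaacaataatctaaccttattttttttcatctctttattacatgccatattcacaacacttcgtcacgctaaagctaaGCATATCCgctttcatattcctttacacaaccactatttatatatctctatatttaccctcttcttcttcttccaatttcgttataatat
SPX1 (chr5:6801527-6801574, plus strand): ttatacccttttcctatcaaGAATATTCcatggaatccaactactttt
IPS1 (chr3:3050387-3050468, plus strand): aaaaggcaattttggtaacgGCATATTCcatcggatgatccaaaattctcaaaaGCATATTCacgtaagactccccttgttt
PHT1;1 (chr5:17402899-17402964, minus strand): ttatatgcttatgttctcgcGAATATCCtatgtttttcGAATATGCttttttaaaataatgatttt
SQD2 (chr5:90430-90477, minus strand): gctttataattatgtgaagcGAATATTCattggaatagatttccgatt
No copy was found within 1000 bases of the starts of PHT1;4, MGD3, SQD1 and PAP17. A match is a description of these letters and not a bound site.

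**Figure D1:**
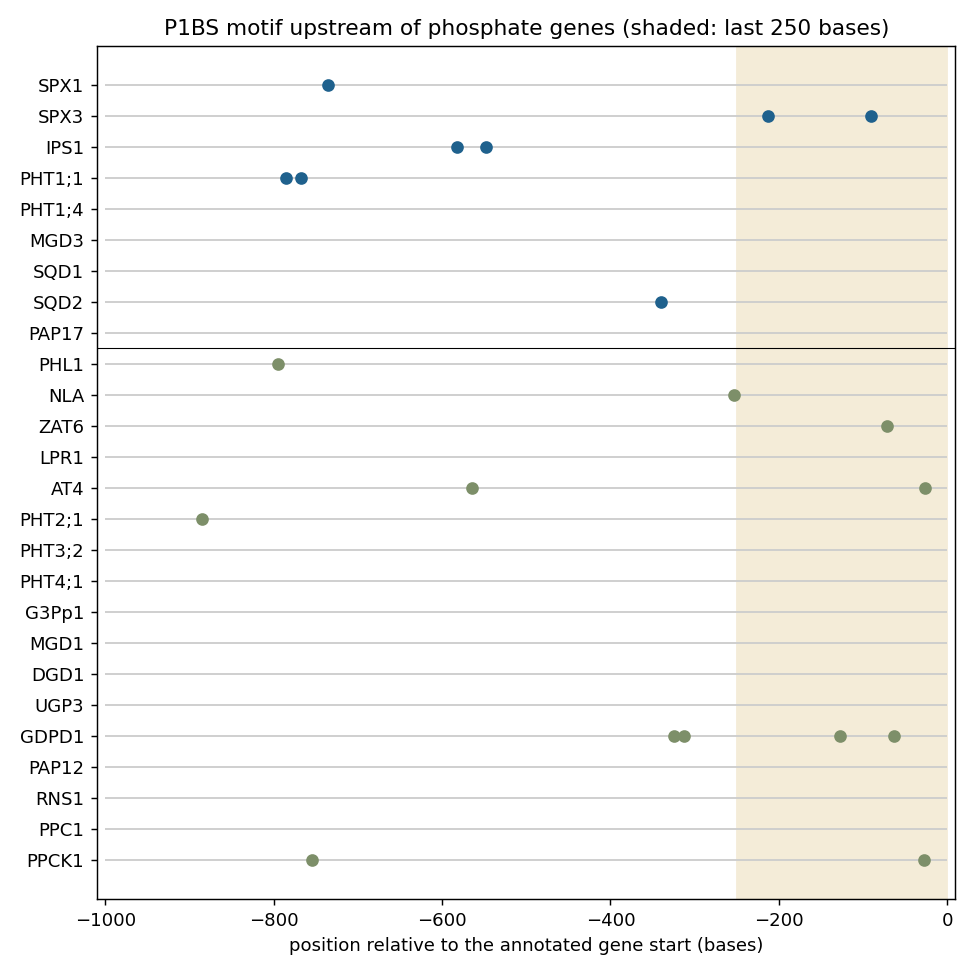
Position of the P1BS motif in the 1000 bases upstream of the annotated start of the 9 genes (blue, above the line) and of 17 other phosphate genes named below (green), with the last 250 bases shaded. SPX3 has 2 copies in the shaded part, SPX1 has 1 and SQD2 has 1 farther upstream, and GDPD1 has 4 in all.

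The 9 genes did not move together. In MIF_1 against WT, PHT1;4 and MGD3 rose and 7 genes did not pass the test; in MIF_3 against WT, SPX1 and PAP17 fell and 7 did not pass. Levels are read counts per 1e6 (CPM) on TMM-scaled library sizes; a gene was called when its edgeR quasi-likelihood p, adjusted by Benjamini-Hochberg over all 20438 genes tested, was below 0.05. Of all genes tested, 17.7% were called in MIF_1 (7.82% rose, 9.85% fell) and 13.3% in MIF_3 (5.84% rose, 7.47% fell), against 2 of 9 (22.2%) in each, so the share called was near the background. The median log2 fold change of the 9 genes was 0.12 in MIF_1 and 0.14 in MIF_3, beside 0.01 over all genes in both. When both transgenic sets were averaged and set against WT, 1 of 9 genes fell (PAP17) and 0 rose, where 18.7% of all genes were called (10.9% fell, 7.76% rose), and the median was 0.10 beside 0.01. The libraries of MIF_1 did not overlap those of WT for 6 of 9 genes, and those of MIF_3 did not for 6 of 9; over all genes the shares were 59.4% and 56.9%. Both comparisons use the same 2 WT libraries.

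**Figure D2:**
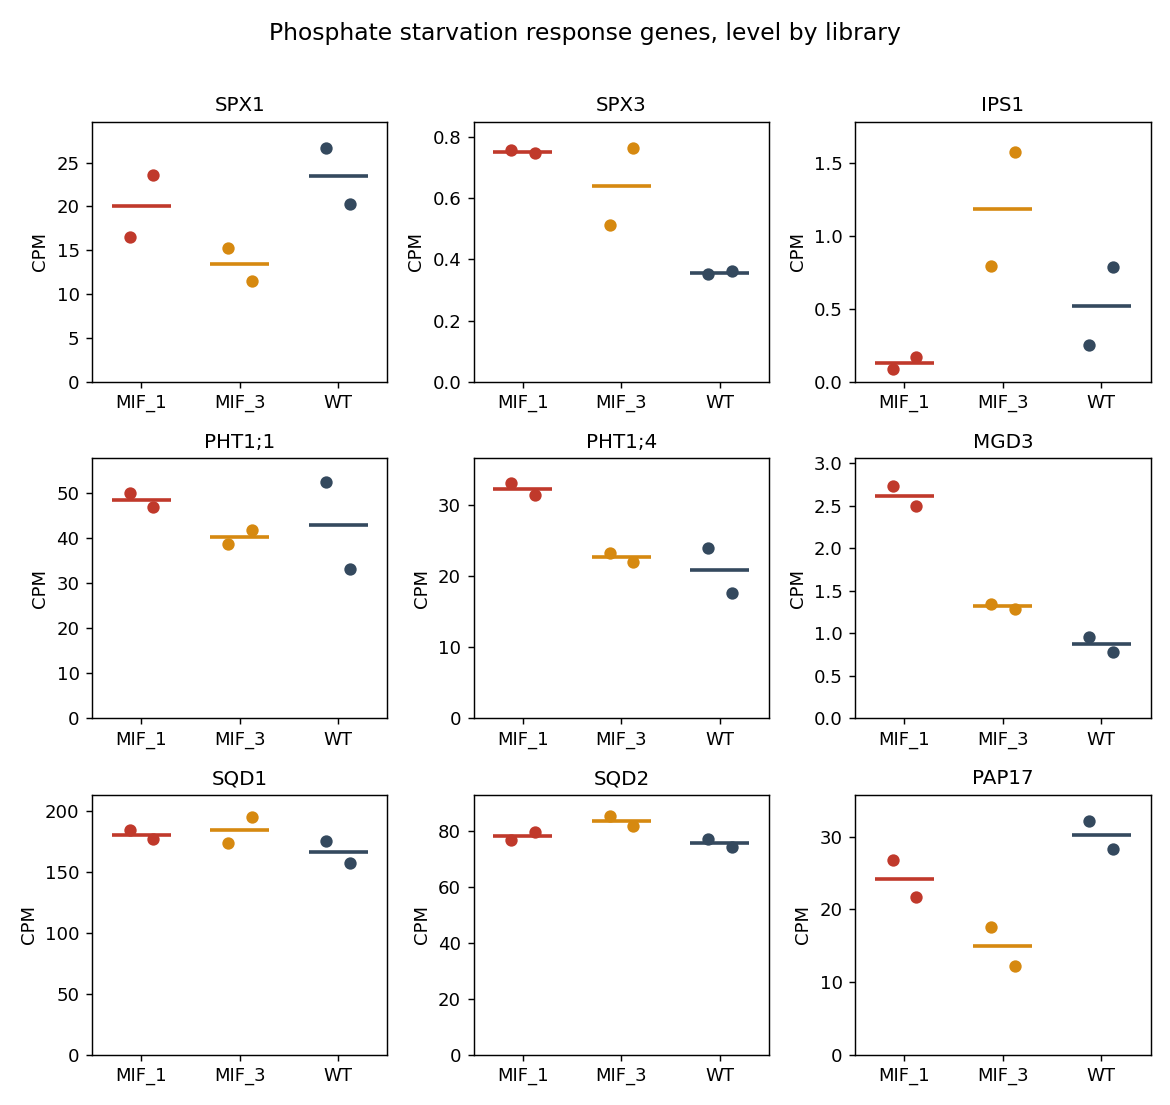
Level of each of the 9 genes in every library, in CPM on axes that start at 0. Each point is 1 library, the bar is the mean of the 2 libraries, and the groups are MIF_1, MIF_3 and WT; PAP17 and SPX1 are lowest in MIF_3, and MGD3 and PHT1;4 are highest in MIF_1.

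SPX1 (AT5G20150, chr5:6802282-6803655) codes for the sensor that restrains PHR1 and is itself a PHR1 target. It had 15.3 and 11.5 CPM in MIF_3 libraries and 16.6 and 23.6 CPM in MIF_1 libraries, against 26.7 and 20.3 CPM in WT libraries. Both MIF_3 libraries lay below both WT libraries, whereas the MIF_1 and WT libraries overlapped. SPX1 fell in MIF_3 by 0.81 ± 0.21 log2 units (SE, n = 2 against 2; edgeR adjusted p = 0.0336) and had a log2 fold change of -0.23 ± 0.21 in MIF_1 (adjusted p = 0.504). The call in MIF_3 ended without WT replicate 1 (-0.59, adjusted p = 0.188), without MIF_3 replicate 2 (-0.62, 0.130) and with the replicate number as a block (0.0503). In MIF_3 against MIF_1 the difference did not pass (-0.58 ± 0.21, adjusted p = 0.212).

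SPX3 (AT2G45130, chr2:18606410-18607853) is a close relative of SPX1 that is strongly induced by phosphate shortage. It was barely detected here, with 18 and 18 counts in MIF_1 and 13 and 19 in MIF_3, against 7 and 6 in WT. In CPM these were 0.756 and 0.748 in MIF_1 and 0.513 and 0.766 in MIF_3, against 0.351 and 0.362 in WT. All 4 transgenic libraries lay above both WT libraries. SPX3 passed the low-count filter (0.442 CPM in at least 2 libraries) only through the transgenic libraries, since neither WT library reached it, so a gene kept this way tends to be higher there. The log2 fold changes of 1.07 ± 0.63 in MIF_1 (adjusted p = 0.291) and 0.83 ± 0.64 in MIF_3 (0.448) did not pass, and the summed counts of 36, 32 and 13 carry 95% Poisson intervals of 25.2 to 49.8, 21.9 to 45.2 and 6.92 to 22.2 for MIF_1, MIF_3 and WT. These intervals cover counting error only.

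IPS1, the miR399 decoy shown above, had the widest spread between groups of the 9 genes on the log2 scale. It had 2 and 4 counts in MIF_1 and 20 and 39 in MIF_3, against 5 and 13 in WT. In CPM these were 0.0840 and 0.166 in MIF_1 and 0.790 and 1.57 in MIF_3, against 0.251 and 0.784 in WT. The MIF_1 libraries lay below WT and the MIF_3 libraries above it, although the lower MIF_3 library and the higher WT library were almost equal. Both MIF_3 libraries and 1 WT library reached the minimum of the low-count filter, and 0 MIF_1 libraries did, so IPS1 was kept through the group where it was highest. The log2 fold changes were -1.96 ± 0.92 in MIF_1 (adjusted p = 0.178) and 1.21 ± 0.71 in MIF_3 (0.311), and neither passed. Set against each other, MIF_3 was 9.06-fold above MIF_1 (log2 3.18 ± 0.83, unadjusted p = 0.00352), and the difference did not pass (edgeR adjusted p = 0.0982). The adjusted p ranged from 0.0405, in DESeq2, to 0.479 over the alternatives. With the compared groups alone, IPS1 was not tested in MIF_1 against WT. Counting error is large at this depth: the summed counts were 6 (95% Poisson interval 2.202 to 13.1) in MIF_1 and 59 (44.9 to 76.1) in MIF_3, against 18 (10.7 to 28.4) in WT.

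The other RNAs of that branch gave little more. AT4 (AT5G03545), the second decoy, had 17.4 and 19.7 CPM in MIF_3 and 12.981 and 15.6 CPM in MIF_1, against 13.6 and 9.52 CPM in WT. It rose in MIF_3 by 0.67 ± 0.19 log2 units (adjusted p = 0.0439) but not in MIF_1 (0.30 ± 0.19, 0.330); the call ended without WT replicate 2 (0.207), in each of the 4 fits that left out a transgenic library (0.0725 to 0.143) and with the replicate block (0.0666). All 6 MIR399 loci and the MIR827 locus had no count in any library, which allows up to 3 counts, or 0.118 to 0.181 CPM by library; poly(A) libraries counted at annotated hairpins are a poor measure of microRNA precursors. PHO2 (AT2G33770), the miR399 target, had 268 and 205 CPM in MIF_1 and 222 and 214 CPM in MIF_3, against 221 and 241 CPM in WT, and did not pass in either (log2 0.03 ± 0.13 and -0.08 ± 0.13; adjusted p = 0.895 and 0.733). PHO2 was named after its values were seen, since its site is printed above.

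PHT1;1 and PHT1;4 code for proton-coupled phosphate transporters of the plasma membrane, best known from the root surface. PHT1;4 (AT2G38940, chr2:16257157-16260253) had 33.0 and 31.4 CPM in MIF_1 and 23.2 and 22.0 CPM in MIF_3, against 23.9 and 17.6 CPM in WT. The MIF_1 libraries lay above all others and the MIF_3 libraries lay within the WT range. PHT1;4 rose in MIF_1 by 0.63 ± 0.15 log2 units (1.55-fold; adjusted p = 0.0180), and its log2 fold change in MIF_3 was 0.12 ± 0.15 (0.667). The call in MIF_1 ended without WT replicate 2 (0.43, adjusted p = 0.0964), MIF_1 replicate 1 (0.59, 0.112) or MIF_1 replicate 2 (0.67, 0.0856). MIF_3 against MIF_1 gave -0.51 ± 0.15 and did not pass (0.125). In the mean of both sets PHT1;4 did not pass (0.37 ± 0.13, 0.0770), except without WT replicate 1 (0.62, 0.0236).

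PHT1;1 (AT5G43350, chr5:17399769-17402158, minus strand) had 49.8 and 46.7 CPM in MIF_1 and 38.6 and 41.8 CPM in MIF_3, against 52.3 and 33.1 CPM in WT. The WT libraries enclosed all 4 transgenic libraries. Its log2 fold changes were 0.17 ± 0.18 in MIF_1 (adjusted p = 0.568) and -0.09 ± 0.18 in MIF_3 (0.798). That result rested on which WT library was used: without WT replicate 1 the value in MIF_1 was 0.55 and passed (adjusted p = 0.0436). PHT1;2 (AT5G43370) and PHT1;3 (AT5G43360), near-identical copies of PHT1;1, had 0 to 9 and 0 to 1 counts in a library, and the counting could have split or dropped reads shared by all 3, so the level of PHT1;1 is uncertain.

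Organ markers are given here because whole seedlings mix root and shoot. Of 12 root markers, none at 0 in any library, 1 rose and 1 fell in MIF_1 and 3 rose in MIF_3. The share called in MIF_1 (2 of 12, 16.7%) was near that of all genes (17.7%). In MIF_3 it was 3 of 12, beside 13.3% of all genes. The summed level of the 12 was 2174 to 2407 CPM in MIF_1 and 1764 to 2032 CPM in MIF_3, against 2136 to 2314 CPM in WT. Without PYK10, which made up most of that sum, the other 11 summed to 140.0 to 141 CPM in MIF_1 and 149 to 178 CPM in MIF_3, against 129 to 150 CPM in WT. The median log2 fold change of the 12 was 0.31 in MIF_1 and 0.60 in MIF_3, beside 0.01 over all genes. An unadjusted edgeR p below 0.05 was reached by 4 of 12 in MIF_1 and 8 of 12 in MIF_3. The shares of all genes were 31.3% and 27.6%. The count in MIF_1 includes the marker that fell, and that in MIF_3 a fall of PYK10 (-0.27 ± 0.11). Of 8 markers of green shoots, 8 fell in MIF_1 (100.0%) and 3 in MIF_3 (37.5%), beside 9.85% and 7.47% of all genes. An unadjusted edgeR p below 0.05 was reached by 8 of 8 in MIF_1 and 7 of 8 in MIF_3, all falls. The shoot sums were 36749 to 39502 CPM in MIF_1 and 41735 to 51224 CPM in MIF_3, against 60396 to 62013 CPM in WT. The part of the organ markers in the phosphate gene results was not tested. In whole seedlings, fewer cells of a type and less RNA per cell cannot be told apart.

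Of the 9 genes, 3 make non-phosphorus membrane lipids. MGD3 (AT2G11810, chr2:4743162-4746813), listed as MGDC in RefSeq, codes for a synthase of the galactolipid monogalactosyldiacylglycerol that is known for its induction by low phosphate. It had 2.73 and 2.49 CPM in MIF_1 and 1.34 and 1.29 CPM in MIF_3, against 0.953 and 0.784 CPM in WT. The 3 groups did not overlap, with MIF_1 highest and WT lowest. MGD3 rose in MIF_1 by 1.58 ± 0.40 log2 units (2.98-fold; adjusted p = 0.0251), and the value of 0.59 ± 0.42 in MIF_3 did not pass (0.404). At 13 to 65 counts in a library its call in MIF_1 ended whenever a WT or MIF_1 library was left out (log2 1.45 to 1.74, adjusted p = 0.0733 to 0.128). MIF_3 against MIF_1 gave -0.99 ± 0.37 (0.231).

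SQD1 and SQD2 carry out consecutive steps of sulfolipid synthesis: SQD1 makes the sulfur-containing head group as a nucleotide sugar, and SQD2 joins it to diacylglycerol. SQD1 (AT4G33030, chr4:15935373-15937833) had 185 and 177 CPM in MIF_1 and 174 and 196 CPM in MIF_3, against 176 and 158 CPM in WT. SQD2 (AT5G01220, chr5:86543-90117, minus strand) had 76.8 and 79.9 CPM in MIF_1 and 85.6 and 81.9 CPM in MIF_3, against 77.2 and 74.4 CPM in WT. The libraries of all 3 groups lay close together for both genes. For SQD1 the log2 fold changes were 0.12 ± 0.10 in MIF_1 and 0.15 ± 0.10 in MIF_3 (adjusted p = 0.487 and 0.392). For SQD2 they were 0.05 ± 0.10 and 0.14 ± 0.10 (0.783 and 0.380). Across the alternatives the log2 values of SQD1 and SQD2 against WT stayed between 0.02 and 0.24, and none passed.

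PAP17 (AT3G17790, chr3:6089381-6091231) codes for a purple acid phosphatase that frees phosphate from organic compounds and is known to respond to phosphate shortage, and also to oxidative stress and senescence. It had 17.5 and 12.2 CPM in MIF_3 and 26.8 and 21.7 CPM in MIF_1, against 32.1 and 28.3 CPM in WT. The 3 groups did not overlap, with MIF_3 lowest and WT highest. PAP17 fell in MIF_3 by 1.02 ± 0.18 log2 units, to 0.493 of WT (adjusted p = 0.00581), and this call held in all 15 alternatives (adjusted p up to 0.0371). In MIF_1 the value of -0.32 ± 0.18 did not pass (0.259). PAP17 also fell in the mean of both sets (0.67 ± 0.15 log2 units, 0.0134), a call that ended without WT replicate 1 (0.110) or MIF_1 replicate 2 (0.0593). In MIF_3 against MIF_1 the value was -0.70 ± 0.18 (unadjusted p = 0.00311, edgeR adjusted p = 0.0917); it passed in DESeq2 (0.0288), with no low-count filter (0.0354), with the replicate block (0.0445) and without MIF_3 replicate 1 (0.0207).

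The last 122 bases of the PAP17 gene overlap AT3G17800 on the opposite strand, and the strand setting of the counting is not given in the sources used here. AT3G17800 had 95.1 and 86.9 CPM in MIF_3 and 105 and 103 CPM in MIF_1, against 167 and 180 CPM in WT. It fell in MIF_3 by 0.93 ± 0.10 and in MIF_1 by 0.74 ± 0.10 log2 units (adjusted p = 3.74e-04 and 0.00127). How far its reads enter the PAP17 counts was not tested. No other gene of the 9 overlaps an annotated locus.

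**Figure D3:**
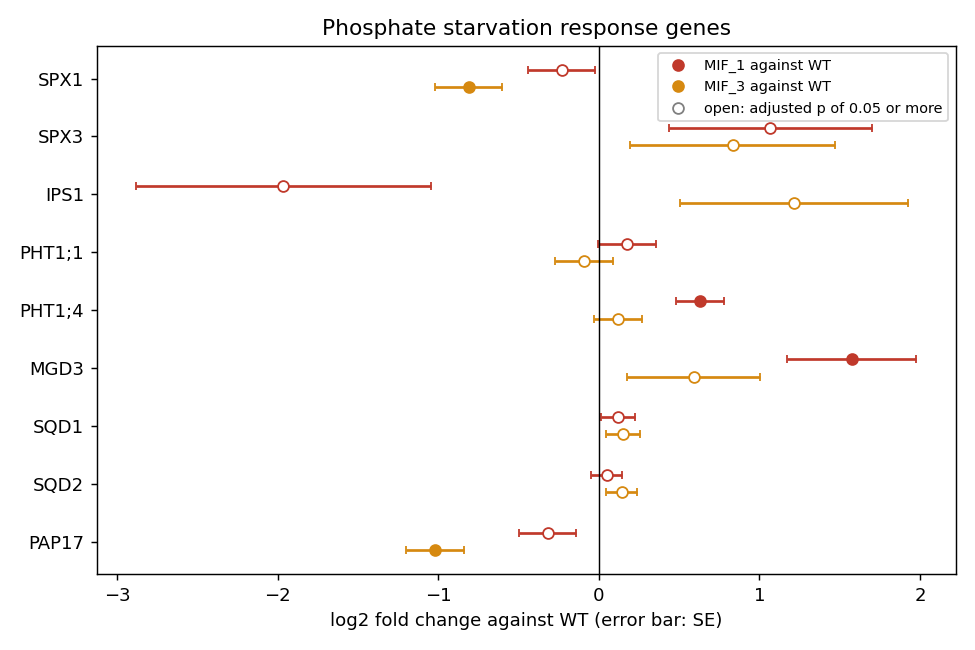
Log2 fold change of the 9 genes in MIF_1 (red) and MIF_3 (orange) against WT, from edgeR, with SE bars; filled points passed at an adjusted p below 0.05. PHT1;4 and MGD3 are filled for MIF_1, SPX1 and PAP17 for MIF_3, and the 2 points of IPS1 lie on opposite sides of 0 with wide bars.

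Per length of exon, the genes spanned a wide range of levels. Averaged over the 6 libraries, in reads per kilobase per 1e6 reads (RPKM), SQD1 was highest at 93.0, followed by SQD2 at 34.9, PHT1;1 at 21.7, SPX1 at 15.7, PAP17 at 13.9 and PHT1;4 at 12.6. IPS1 at 1.12, MGD3 at 0.830 and SPX3 at 0.636 formed the low end. By library the range was 82.6 to 103 for SQD1 and 32.7 to 37.6 for SQD2, which did not meet each other or the rest. The ranges of PHT1;1 (16.4 to 26.0), SPX1 (9.56 to 22.1), PAP17 (7.39 to 19.4) and PHT1;4 (8.81 to 16.5) overlapped, as did those of IPS1 (0.155 to 2.90), MGD3 (0.407 to 1.42) and SPX3 (0.383 to 0.836), so the order within these sets is not resolved.

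No gene of the 9 differed between MIF_3 and MIF_1 at the adjusted threshold in edgeR, where 1.76% of all genes were called (0.475% rose, 1.29% fell). The libraries of these sets did not overlap for 7 of 9 genes, beside 47.3% of all genes. At an unadjusted p below 0.05 there were 5 (SPX1, IPS1, PHT1;4, MGD3 and PAP17), beside 16% of all genes. DESeq2 called 2 (IPS1 and PAP17), and called 3.87% of all genes. The low-count filter kept IPS1 through MIF_3, where it was highest, so its place in these counts is not independent of the filter. The median over the 9 genes was -0.26, beside 0.01 over all genes. An effect that passed against WT in one set and not in the other is therefore not shown to differ between the sets for SPX1, PHT1;4 or MGD3.

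A further 80 phosphate genes were read by role; 61 passed the low-count filter, 19 did not and 11 of those had no count. In MIF_1, 7 rose and 6 fell (13 of 61, 21.3%); in MIF_3, 6 rose and 10 fell (16 of 61, 26.2%), beside 17.7% and 13.3% of all genes called. Their medians were 0.03 and -0.02, beside 0.01 over all genes in both. In the mean of both sets 6 rose and 8 fell (23.0%, beside 18.7%). Of these, 8 passed wherever they were tested in the alternatives, the stricter threshold aside: DGD1, G3Pp1, GDPD1, PHT3;2, PHT4;1, PPCK1, RNS1 and UGP3. PHT3;2 and RNS1 passed the low-count filter only through the transgenic libraries, and genes kept this way tend to be higher there. Their place among the genes that rose is therefore not independent of the filter.

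Among 20 genes of sensing and signalling, 3 rose and 1 fell in the mean of both sets and 16 did not pass. The gene that fell was ZAT6, described with the differences between the sets. PHL1 (AT5G29000), a relative of PHR1, rose by 0.55 ± 0.12 log2 units (adjusted p = 0.0107), with 15.2 ± 0.587 CPM in MIF_1 and 17.6 ± 0.622 in MIF_3, against 11.1 ± 0.223 in WT (SD, n = 2). NLA (AT1G02860), a ubiquitin ligase that targets PHT1 transporters, rose by 0.70 ± 0.15 (0.0119), with 14.8 ± 1.95 CPM in MIF_1 and 13.6 ± 0.647 in MIF_3, against 8.77 ± 1.33 in WT. LPR1 (AT1G23010), an oxidase of the root growth response to low phosphate, rose by 0.70 ± 0.18 (0.0265). In MIF_1 it rose (0.94 ± 0.20, 0.0124) and its MIF_3 value missed the threshold (0.45 ± 0.21, 0.193). The MIF_1 call of LPR1 did not hold in every alternative, and its log2 value there ran from 0.71 to 1.21 when a library was left out. Without WT replicate 1 the calls in the mean ended, at log2 0.58 for PHL1 (0.0509), slightly above its value with all libraries, and at 0.55 for NLA (0.0936) and 0.47 for LPR1 (0.179), both below theirs. The call of PHL1 also ended without WT replicate 2 (0.0645), and that of LPR1 without MIF_1 replicate 1 (0.0817) or 2 (0.0651). NLA and LPR1 overlap loci on the opposite strand. SPX2 (AT2G26660), a relative of SPX1 named after its value was seen, fell in MIF_3 by 0.45 ± 0.13 (0.0427). It had 15.2 and 16.4 CPM in MIF_3 and 20.9 and 19.5 CPM in MIF_1, against 20.8 and 22.5 CPM in WT. The call of SPX2 did not hold in every alternative. PHR1 (AT4G28610) itself did not pass in either set (-0.13 ± 0.10 in MIF_1, -0.16 ± 0.10 in MIF_3; adjusted p = 0.450 and 0.370) and was named after its values were seen.

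Among 22 transport genes, 16 were tested; 1 rose, 3 fell and 12 did not pass in the mean of both sets. PHT3;2 (AT3G48850), a mitochondrial phosphate carrier, had 72 and 39 counts in MIF_1 and 30 and 59 in MIF_3, against 1 and 0 in WT. The ratio of summed counts to WT, scaled by library size, was 84.7 in MIF_1 (exact 95% counting interval 14.9 to 3374) and 64.8 in MIF_3 (11.3 to 2588). These intervals cover counting error only. The edgeR test gave folds of 70.8 in MIF_1 and 54.3 in MIF_3 (adjusted p = 0.00246 and 0.00448). Neither WT library reached the minimum of the low-count filter, so PHT3;2 was tested only because it was high in the transgenic libraries. The genes that fell include 2 of plastid membranes. PHT4;1 (AT2G29650), a thylakoid phosphate transporter, had 81.0 and 76.2 CPM in MIF_1 and 91.8 and 101 CPM in MIF_3, against 158 and 161 CPM in WT (log2 -1.02 ± 0.10 and -0.73 ± 0.10, adjusted p = 2.29e-04 and 0.00148). It overlaps a locus on the opposite strand. PHT2;1 (AT3G26570), a transporter of the inner chloroplast envelope, fell by 0.41 ± 0.08 in the mean of both sets (0.00587), a call that ended without WT replicate 1 (0.0754). G3Pp1 (AT3G47420), a putative glycerol-3-phosphate permease known for its induction by low phosphate, had 40.0 and 40.6 CPM in MIF_1 and 29.7 and 31.1 CPM in MIF_3, against 101 and 77.5 CPM in WT, and fell by 1.15 ± 0.13 and 1.55 ± 0.13 (adjusted p = 5.73e-04 and 1.12e-04). The 8 green shoot markers fell beside these plastid genes in MIF_1, and 3 of 8 in MIF_3.

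Among 16 lipid genes, 14 were tested. In the mean of both sets 0 rose, 3 fell and 11 did not pass. The share called was 21.4%, near the 18.7% of all genes (7.76% rose, 10.9% fell). DGD1 (AT3G11670), the main synthase of digalactosyldiacylglycerol in chloroplasts, had 56.1 and 50.4 CPM in MIF_1 and 41.1 and 40.5 CPM in MIF_3, against 84.9 and 90.2 CPM in WT. It fell by 0.72 ± 0.10 log2 units in MIF_1 and 1.10 ± 0.10 in MIF_3 (adjusted p = 0.00191 and 2.03e-04). UGP3 (AT3G56040), which makes the UDP-glucose that SQD1 uses, fell by 0.52 ± 0.08 in the mean of both sets (0.00214) and overlaps loci on the opposite strand. MGD1 (AT4G31780), the constitutive relative of MGD3, did not pass (-0.23 ± 0.09, 0.0961) and overlaps a locus on its own strand. GDPD1 (AT3G02040), a phosphodiesterase of phospholipid breakdown, had 8.45 and 6.85 CPM in MIF_3 and 18.6 and 17.8 CPM in MIF_1, against 25.7 and 22.6 CPM in WT. It fell in MIF_3 by 1.66 ± 0.15 (adjusted p = 1.61e-04), did not pass in MIF_1 (-0.41 ± 0.14, 0.0810), and is overlapped over 681 bases by AT3G02030 on the opposite strand, which had 3.99 to 6.55 CPM in all libraries. GDPD1 had the largest fall in MIF_3 among the 14 lipid genes tested. DGD1 and UGP3, the other lipid genes that fell in the mean of both sets, have no copy of P1BS within 1000 bases. Other tested lipid genes with copies within 1000 bases include PLDP2 (4), NPC4 (3), MGD2 (2) and PAH1 (2). None of these passed in MIF_3 (log2 -0.15, 0.08, 0.60 and -0.28, in that order). PS2 (2 copies) fell there (-1.01 ± 0.28, edgeR adjusted p = 0.0432). These genes were named after their values were seen. A link between the motif and the changes was not tested. The 250 bases upstream of GDPD1 hold 2 copies, in capitals.
GDPD1 (chr3:350011-350260, minus strand): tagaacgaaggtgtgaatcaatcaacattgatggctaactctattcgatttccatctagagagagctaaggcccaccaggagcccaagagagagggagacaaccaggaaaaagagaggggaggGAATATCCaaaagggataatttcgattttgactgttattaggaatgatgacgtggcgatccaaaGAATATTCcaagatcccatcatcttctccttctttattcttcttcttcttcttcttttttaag

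Among 14 genes of phosphate scavenging and metabolic bypass, 10 were tested. In the mean of both sets 2 rose, 1 fell and 7 did not pass (30.0% called, beside 18.7% of all genes). RNS1 (AT2G02990), a secreted ribonuclease induced by low phosphate and by wounding, had 3.82 and 5.48 CPM in MIF_1 and 1.74 and 6.04 CPM in MIF_3, against 0.251 and 0.301 CPM in WT. It rose by 4.06 ± 0.69 log2 units in MIF_1 and 3.80 ± 0.69 in MIF_3 (adjusted p = 0.00389 and 0.00676), and the 2 MIF_3 libraries differed widely from each other. RNS1 also entered the test through the transgenic libraries alone. PAP12 (AT2G27190), a secreted acid phosphatase, rose by 0.45 ± 0.11 in the mean of both sets (0.0198), with 41.8 ± 3.06 CPM in MIF_1 and 42.2 ± 6.02 in MIF_3, against 30.7 ± 0.636 in WT. That call ended without WT replicate 1 (0.0866), WT replicate 2 (0.116) or MIF_1 replicate 2 (0.0697). PPC1 (AT1G53310), a phosphoenolpyruvate carboxylase, did not pass in the mean (0.27 ± 0.09, 0.0538), though it rose in MIF_1 (0.35 ± 0.10, 0.0354). The MIF_1 call of PPC1 did not hold in several alternatives, the replicate block (edgeR adjusted p = 0.0524) among them. When a library was left out its log2 value in MIF_1 ran from 0.27 to 0.45. PPCK1 (AT1G08650), the kinase that activates that enzyme, had 9.40 and 8.90 CPM in MIF_3 and 27.9 and 32.7 CPM in MIF_1, against 30.0 and 29.6 CPM in WT, and fell in MIF_3 (log2 -1.70 ± 0.13, adjusted p = 5.72e-05), with 0.02 ± 0.12 in MIF_1 (0.924). AT1G08645, which overlaps PPCK1 on the opposite strand, had no count in any library.

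**Figure D4:**
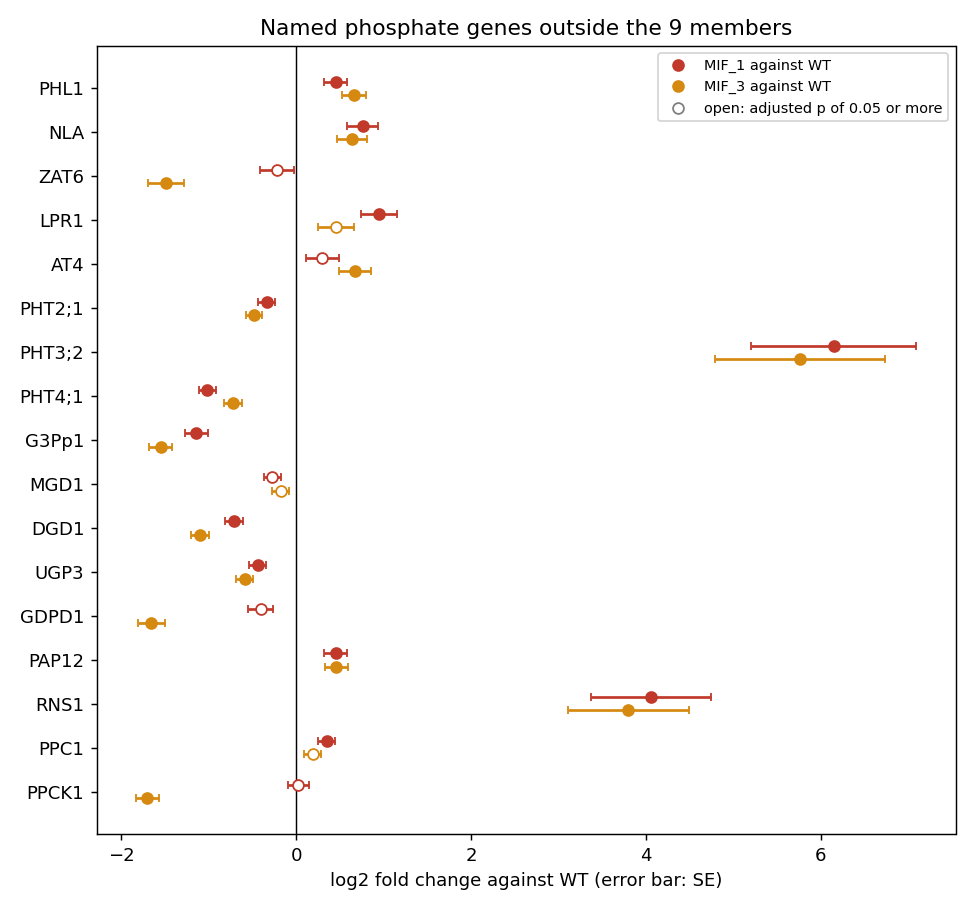
Log2 fold change of the 17 named phosphate genes outside the 9 in MIF_1 (red) and MIF_3 (orange) against WT, from edgeR, with SE bars, in the order sensing, noncoding RNA, transport, lipids and scavenging; filled points passed at an adjusted p below 0.05. PHT3;2 and RNS1 lie far to the right, and the 2 points of ZAT6, GDPD1 and PPCK1 lie far apart.

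Of the 80 genes, 3 differed between MIF_3 and MIF_1, and all 3 were lower in MIF_3: PPCK1 by -1.73 ± 0.13 log2 units (adjusted p = 3.31e-04), GDPD1 by -1.25 ± 0.15 (0.00454) and ZAT6 by -1.27 ± 0.20 (0.0158). That is 3 of 61 tested (4.9%), beside 1.76% of all genes (1.29% fell). ZAT6 (AT5G04340), a zinc finger factor linked to phosphate homeostasis and to stress, had 3.12 and 3.02 CPM in MIF_3 and 7.77 and 7.06 CPM in MIF_1, against 8.33 and 8.92 CPM in WT. In each of these 3 genes both MIF_3 libraries lay below both libraries of MIF_1. Over all genes the libraries of the 2 sets did not overlap, in either direction, for 47.3%. PPCK1 passed in every alternative; the calls of GDPD1 and ZAT6 ended without MIF_1 replicate 1 (adjusted p = 0.0916 and 0.189) or MIF_1 replicate 2 (0.0616 and 0.106).

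**Figure D5:**
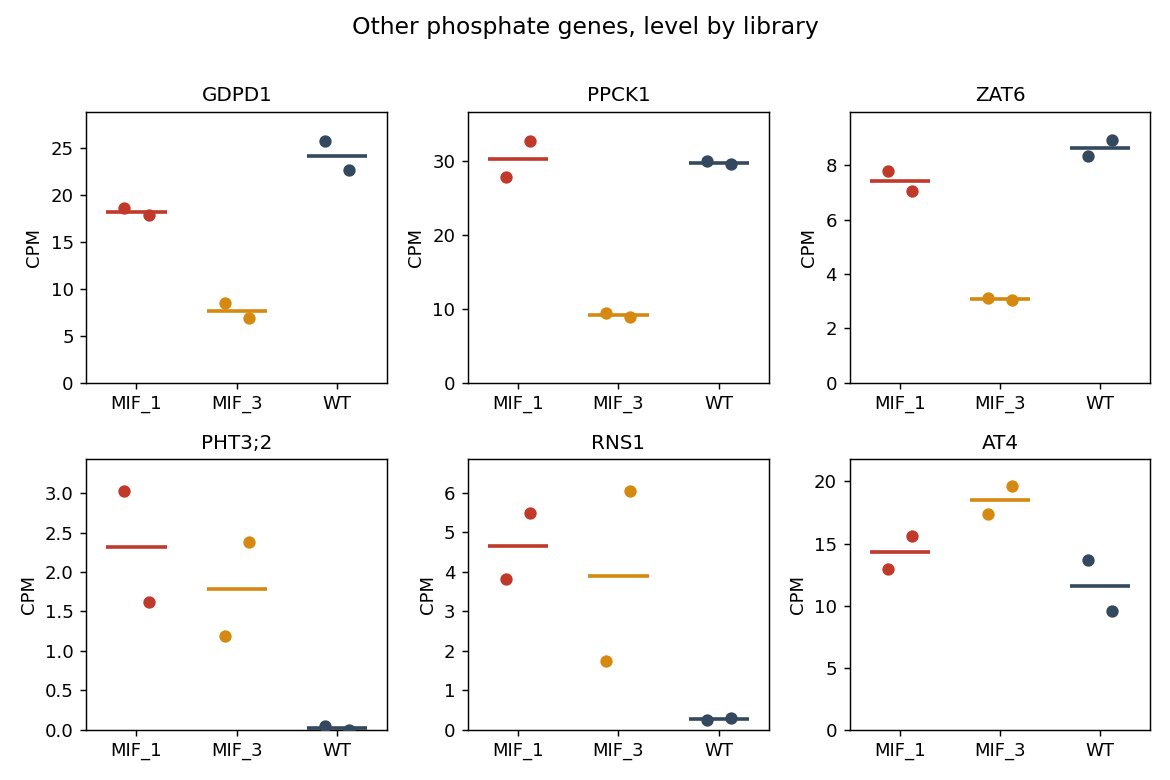
Level of 6 phosphate genes outside the 9 in every library, in CPM on axes that start at 0; each point is 1 library and the bar is the mean of the 2 libraries of MIF_1, MIF_3 or WT. GDPD1, PPCK1 and ZAT6 are lowest in MIF_3, and PHT3;2 and RNS1 are near 0 in WT.

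Total counts per library ran from 22403469 to 22827857 in MIF_1 and 24175475 to 24698636 in MIF_3, against 18262579 to 21404582 in WT. MORF2 (AT2G33430), the plastid editing factor in the series title, had 111 and 107 CPM in MIF_1 and 92.4 and 96.8 CPM in MIF_3, against 103 and 98.4 CPM in WT. The locus of MIF is not named in the sources used here, so its transcript was not looked up. Replicates were not copies of one library: their counts differed beyond sampling noise (chi-square divided by its degrees of freedom 9.1 in MIF_1 and 24.3 in MIF_3, against 11.3 in WT).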

How the data were processed

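The authors deposited raw counts, as whole numbers of reads for each locus, for the 6 seedling libraries. Per the submitters' processing notes, fastp, STAR and HTSeq were used with TAIR10; tool versions, annotation release, use of strand and treatment of multiply mapped reads: not given in the sources used here. For the main test, counts entered the quasi-likelihood test of edgeR 4.0.16 (R 4.3.3, limma 3.58.1) after filterByExpr (minimum count 10, minimum total 15) and TMM scaling. All 6 libraries entered 1 model with a coefficient for each group, which left 3 residual degrees of freedom. P-values were adjusted over all 20438 genes, and fold changes are on the log2 scale. Each SE was derived as the size of the log2 fold change divided by the root of its F statistic, and is approximate. RPKM used the union of annotated exons. DESeq2 1.42.0 was among the alternatives.

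Members and gene lists were chosen with earlier results of these data known. Named were the 9 genes, up to 4 further phosphate genes per role by smallest p for both sets averaged against WT, every one called between MIF_3 and MIF_1, and the close copies of PHT1;1; exceptions are marked. Names and coordinates are those of RefSeq for TAIR10.1, used by locus ID; 82 of the 89 phosphate genes had their name there, and the other 7 are counted but not named.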

Additional observations from a re-analysis of the deposited data

Results flagged for a closer look

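For 3 phosphate genes the change against WT differed between the 2 transgenic sets by a test of the difference itself, edgeR's contrast of MIF_3 against MIF_1. The contrast gives the WT level no weight, but the WT libraries share in the low-count filter, the scaling and the estimate of the spread. The log2 differences were -1.73 for PPCK1, -1.25 for GDPD1 and -1.27 for ZAT6. PPCK1 was called in every alternative, whereas the calls of GDPD1 and ZAT6 did not hold in all of them. Relative to WT, PPCK1 moved by -1.70 in MIF_3 and 0.02 in MIF_1, GDPD1 by -1.66 and -0.41, and ZAT6 by -1.49 and -0.22. The groups hold 2 libraries each, too few to look for a library that stands apart within a group.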

How the results depend on the processing

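Of the 9 genes, 1 was called in the mean of both sets; this became 2 with no low-count filter, 0 at an adjusted p below 0.01, and 0 to 2 when a library was left out. Without WT replicate 1 that 1 call was a rise of PHT1;4 in place of the fall of PAP17. In MIF_1 the 2 calls became 1 with a mean count of at least 50, where 6 of the 9 could be tested, 0 at 0.01, and 0 to 2 when a library was left out. In MIF_3 the 2 calls became 1 with the replicate block, 1 at 0.01, and 1 to 2 when a library was left out. Between MIF_3 and MIF_1 the 0 calls became 2 in DESeq2, 1 with no low-count filter, 1 with the replicate block, and 0 to 1 when a library was left out. Of the 80 others, the 13 calls in MIF_1 became 5 and the 16 in MIF_3 became 10 at 0.01; when a library was left out there were 10 to 15 calls in the mean, 5 to 12 in MIF_1, 11 to 12 in MIF_3 and 1 to 3 between the sets. RLE factors and removal of organelle genes changed no call of a named gene. Over all genes, leaving out a library gave 2164 to 3843 calls in the mean (3822 with all), 1332 to 3947 in MIF_1 (3612), 1575 to 2435 in MIF_3 (2720) and 20 to 506 between MIF_3 and MIF_1 (360); the last was 775 in DESeq2 and 687 with no low-count filter. With the replicate block the 4 counts were 3461, 3127, 2363 and 295. The replicate differences of the groups were close to uncorrelated (correlations of -0.04, -0.04 and 0.04). The labels do not say whether the replicate numbers pair libraries. Why calls were lost or gained under the block was not tested. SPX3, IPS1 and MGD3 rest on at most 65 counts in a library. The causes of the changes between settings were not tested, other than the 3 genes removed by the stricter filter.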
